A study of Mus musculus with 111 samples.

Results

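Pluripotency transcription factors were followed in single mouse embryos at the 2-cell stage, after knockdown of the orphan nuclear receptor Nr5a2 and in control embryos. The 10 genes were Pou5f1, Nanog, Sox2, Klf2, Klf4, Klf5, Klf17, Tfcp2l1, Sall4 and Tbx3, chosen by name out of 36134 gene identifiers, and each symbol matched 1 gene identifier. Estimated counts of their 32 transcripts were summed to genes and expressed as CPM, counts scaled to a common library size. The embryos carried the B6129F1 background, and all had been injected as germinal vesicle oocytes, so knockdown and control embryos alike were injected, held for 5 hours in medium with dbcAMP, matured in vitro for 12 hours and fertilized in vitro.

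Knockdown embryos received 2 siRNAs against Nr5a2 at 20 µM each together with the injection marker H2B (a histone) fused to rsEGFP at 150 ng/µl. Control embryos received control siRNAs with H2B fused to EGFP at 150 ng/µl, so the marker differed between the arms. Experiment 1 held 16 knockdown and 24 control embryos, experiment 2 held 16 knockdown and 7 control embryos, and experiment 3 held 23 knockdown and 25 control embryos. Each library came from 1 whole embryo, so its CPM values are shares of that embryo's polyadenylated RNA and not amounts per cell. Shared parents or collection days within an experiment are not given in the labels, so p-values measure the spread between these embryos.

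Libraries held between 1.97 M and 21.4 M counts (M, mega-counts), with a median of 4.54 M in knockdown and 4.98 M in control embryos. Oocyte markers such as Gdf9 and Zp3 and the 2-cell markers of the Zscan4 and Tdpoz families were present in both arms. The summed oocyte markers had medians of 4805 CPM in knockdown and 4839 CPM in control embryos, and the summed 2-cell markers 3041 CPM in knockdown and 3214 CPM in control embryos. The 8 sperm markers summed to medians of 2.38 CPM in knockdown and 2.28 CPM in control embryos. The 8 blood, endothelial and fibroblast genes summed to medians of 429.0 CPM in knockdown and 356.6 CPM in control embryos, most of it Pecam1. Of the hemoglobin genes Hbb-bs had no count in any embryo, while Hba-a1 had counts in every embryo and averaged 19.3 CPM in knockdown and 20.3 CPM in control embryos. The 14 cumulus and granulosa markers summed to medians of 106.6 CPM in knockdown and 108.3 CPM in control embryos. Of these, Amhr2, Tnfaip6 and Cyp19a1 had enough counts to be tested. Amh, Fshr and Inha each had a count in at most 5 embryos of an arm, while Amhr2 averaged 91.1 CPM in knockdown and 87.7 CPM in control embryos. A set of 4 libraries stood apart, with a median correlation to their own group under 0.6. These were knockdown embryos 8, 5 and 15 of experiment 3 and control embryo 2 of experiment 2.

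The targeted gene was low in knockdown embryos. Nr5a2 had medians of 51.4, 47.2 and 42.3 CPM in the knockdown embryos of experiments 1, 2 and 3, against 114.1, 101.98 and 76.8 CPM in the control embryos. On the log2 scale it fell by 1.17 (SE 0.12, edgeR's quasi-likelihood test, adjusted p = 3.7e-12), and 52 of 55 knockdown embryos lay below the control median of their experiment. Its transcripts did not all fall alike in the authors' deposited table over all embryos. ENSMUST00000192929.5 had a log2 fold change of -1.56 (adjusted p = 1.7e-18) and ENSMUST00000192357.5 of -1.34 (adjusted p = 0.0013). ENSMUST00000168126.6 had -1.31 (adjusted p = 0.562), while ENSMUST00000027649.13 had -0.093 (SE 0.18, adjusted p = 0.998).

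In the blastocyst and in embryonic stem cells, POU5F1, SOX2 and NANOG form the core of the pluripotency network. SALL4, TBX3, TFCP2L1 and the zinc finger factors KLF2, KLF4 and KLF5 act around that core, and TFCP2L1 and several KLF factors respond there to LIF and WNT signals. NR5A2 belongs to the same network: it is known to bind regulatory sequence of Pou5f1 in embryonic stem cells. In the mouse 2-cell embryo the major wave of genome activation takes place while maternal transcripts are still being cleared, so an mRNA found there can be inherited from the oocyte or newly made. SmartSeq2 libraries primed on poly(A) do not separate these sources.

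NR5A factors bind as monomers to a 9-base element, TCAAGGTCA or TCAAGGCCA, and many nuclear receptors bind the half-site AGGTCA. The RefSeq table of promoter windows (GRCm38.p6) had an entry for 7 of the 10 genes. The 250 bases before the start are shown for the genes whose windows bear on the comparison below: Klf17, the most abundant factor and the one with a full element, Pou5f1, with overlapping half-sites, and Klf2, the factor with the smallest p, without a match. Capitals mark matches to an element, to AGGTCA or to TCAAGG on either strand.
Klf17, chr4:117765667-117765916, minus strand: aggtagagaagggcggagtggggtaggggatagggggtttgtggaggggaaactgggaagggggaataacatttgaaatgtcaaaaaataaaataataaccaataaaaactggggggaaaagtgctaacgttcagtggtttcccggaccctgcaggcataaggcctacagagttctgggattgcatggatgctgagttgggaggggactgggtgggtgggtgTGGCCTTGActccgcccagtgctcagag
Pou5f1, chr17:35505782-35506031, plus strand: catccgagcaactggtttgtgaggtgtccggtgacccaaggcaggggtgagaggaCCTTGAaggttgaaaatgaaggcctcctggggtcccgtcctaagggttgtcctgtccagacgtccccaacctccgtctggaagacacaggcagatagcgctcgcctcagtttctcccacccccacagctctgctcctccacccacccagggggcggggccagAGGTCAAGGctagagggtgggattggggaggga
Klf2, chr8:72318812-72319061, plus strand: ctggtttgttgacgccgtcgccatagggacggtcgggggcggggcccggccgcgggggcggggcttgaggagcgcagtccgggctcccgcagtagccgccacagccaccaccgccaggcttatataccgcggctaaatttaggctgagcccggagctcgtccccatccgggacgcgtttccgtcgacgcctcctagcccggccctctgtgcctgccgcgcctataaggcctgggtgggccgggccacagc

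In the Klf17 window the capitals TGGCCTTGA are TCAAGGCCA on the opposite strand, at positions -28 to -20 from the start. Either full element occurred in 0.892% of 32851 promoter windows, counted on both strands over all 300-base entries of the table, and Klf17 was the only factor with one. In the Pou5f1 window AGGTCA at -33 to -28 and TCAAGG at -30 to -25 overlap by the letters TCA, forming AGGTCAAGG, and CCTTGA, which is TCAAGG on the opposite strand, lies at -195 to -190. AGGTCA occurred in 14.0% and TCAAGG in 12.5% of all windows, so single matches were common. AGGTCA was also found, as TGACCT on the opposite strand, at -248 to -243 in the Nanog window and at -244 to -239 in the Sox2 window. Positions count from the RefSeq start of each window, which can differ from the GENCODE gene starts given below. The Sox2 window ends at chr3:34649994, ahead of the gene start at 34650405. The Klf2 window ends at chr8:72319061, past the gene start at 72319033. These matches describe letters only. The windows of Klf4 and Tfcp2l1 had no match, like that of Klf2. Klf5, Sall4 and Tbx3 had no entry.

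Klf17 was the most abundant factor and Sox2 the least abundant in both arms. Levels were compared per transcript length, as TPM, counts scaled to transcript length and library size. Klf17, a KLF family factor present in oocytes and early embryos, had a median of 773.1 TPM in knockdown and 765.0 TPM in control embryos. It was above Pou5f1, the next factor, in all 55 knockdown and all 56 control embryos. Pou5f1 followed with medians of 93.2 TPM in knockdown and 100.3 TPM in control embryos, and Sall4 with 91.3 TPM in knockdown and 85.7 TPM in control embryos. Pou5f1 was above Sall4 in 31 knockdown and 35 control embryos, so these neighbours did not separate.

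Tbx3 and Klf5 came next. Tbx3 had medians of 20.7 TPM in knockdown and 21.4 TPM in control embryos and lay below Sall4 in every embryo analysed, while Klf5 had 13.2 TPM in knockdown and 16.0 TPM in control embryos and lay below Tbx3 in 43 knockdown and 41 control embryos. Klf4 had 7.56 TPM in knockdown and 8.66 TPM in control embryos, Tfcp2l1 had 5.24 TPM in knockdown and 7.61 TPM in control embryos, and Nanog had 5.10 TPM in knockdown and 4.73 TPM in control embryos. Klf4 exceeded Tfcp2l1 in 35 knockdown and 29 control embryos, and Tfcp2l1 exceeded Nanog in 29 knockdown and 43 control embryos. Klf2 had 6.45 TPM in knockdown and 4.57 TPM in control embryos, and Nanog exceeded it in 21 knockdown and 27 control embryos, so these neighbours did not separate either. Sox2 was lowest, with 0.63 TPM in knockdown and 0.76 TPM in control embryos.

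**Figure D1:**
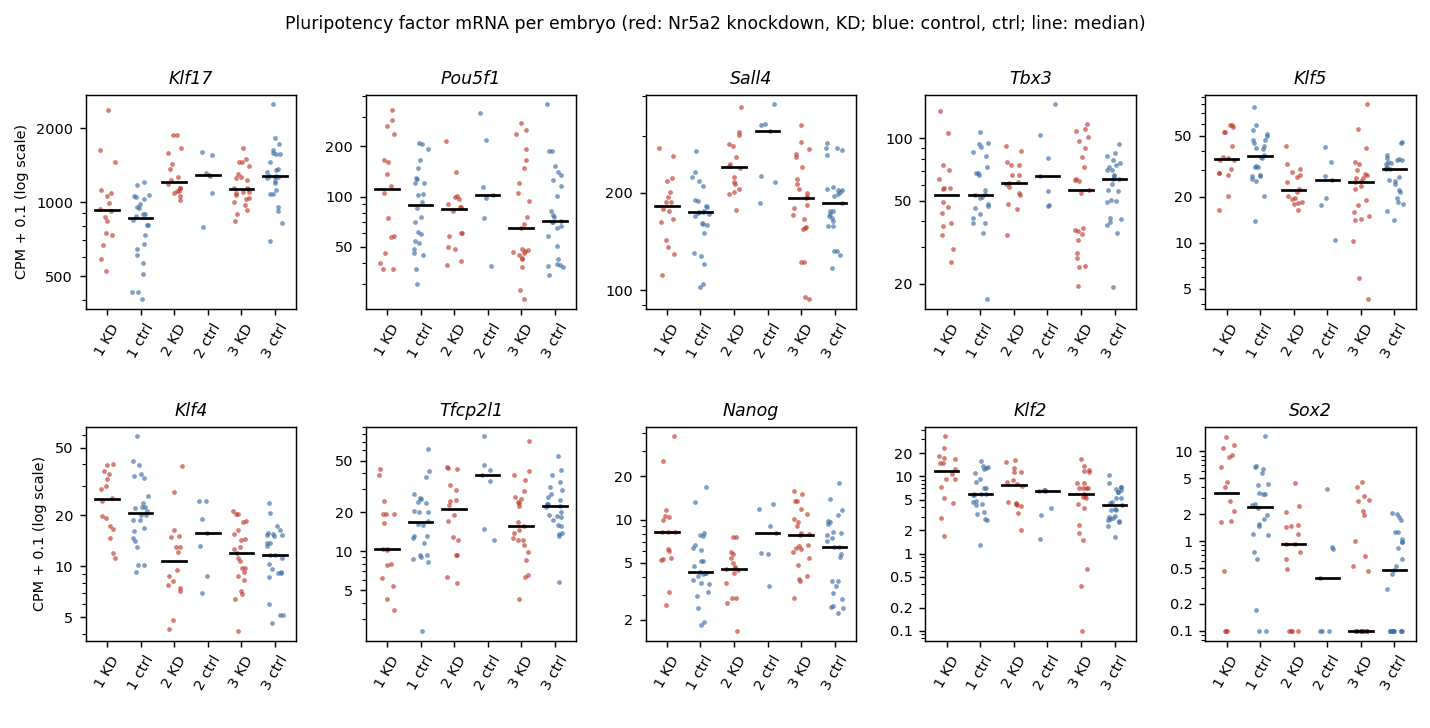
CPM of each factor (log scale, 0.1 added) in every embryo, by experiment and arm, ordered by level per length; points are embryos and lines are group medians. Klf17 lies between 403 and 2495 CPM, while Sox2 reaches 0 in 19 knockdown and 15 control embryos.

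None of the 9 factors that could be tested passed the test of knockdown against control over all experiments. Sox2 did not pass the filter on low counts and is described by its counts. Across all 13451 features tested, 148 passed at an adjusted p of 0.05 (edgeR's quasi-likelihood test with experiment as a factor), which is 1.1%, and 0 of 9 is near that background. At an unadjusted p under 0.05 there were 2 of the 9, Klf2 and Tfcp2l1, against 9.52% of all features. DESeq2 called 1 of the 9, Klf2, among 227 calls over the same 13451 features. With limma-voom, which also called 133 of the 148 features, 0 of the 9 passed. The 9 log2 fold changes had a median of 0.0050, with 5 above and 4 below 0, against a median of 0.019 over all features.

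Pou5f1, which encodes the POU factor OCT4, needed in the embryo for the inner cell mass, spread widely within every group. In experiment 1 it had a lowest, median and highest value of 36.4, 110.9 and 330.03 CPM in knockdown embryos and 29.8, 88.6 and 209.2 CPM in control embryos. In experiment 2 the values were 38.9, 83.8 and 214.3 CPM in knockdown and 37.96, 101.8 and 316.4 CPM in control embryos. In experiment 3 they were 24.2, 64.7 and 274.9 CPM in knockdown and 33.7, 71.6 and 357.1 CPM in control embryos. The groups overlapped over almost their whole range. Pou5f1 gave a log2 fold change of 0.032 with an SE of 0.18 (adjusted p = 0.987). Its 95% interval ran from a 0.802-fold to a 1.30-fold level in knockdown embryos.

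The highest Pou5f1 values included the libraries that stood apart. Knockdown embryos 8, 5 and 15 of experiment 3 had 235.8, 274.9 and 249.4 CPM, and control embryo 2 of experiment 2 had 316.4 CPM. Without these 4 embryos the log2 fold change over all experiments was -0.056, and that of experiment 3 was -0.38 in place of 0.015. Nearly all Pou5f1 counts came from 1 coding transcript, ENSMUST00000025271.16, with 99.3% of the gene's counts in knockdown and 99.1% in control embryos. The gene lies at chr17:35506018-35510772 on the plus strand (GENCODE M21, GRCm38) and overlaps Gm19553 on the other strand, whose reads cannot be told apart in libraries without strand.

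Nanog, which encodes a homeodomain factor of the naive epiblast, was low and differed in direction between experiments. In experiment 1 it had a lowest, median and highest value of 2.45, 8.12 and 38.01 CPM in knockdown embryos and 1.75, 4.21 and 16.9 CPM in control embryos, and 14 of 16 knockdown embryos lay above the control median. In experiment 2 it had 1.58, 4.45 and 7.53 CPM in knockdown and 3.33, 8.02 and 12.7 CPM in control embryos, and all 16 knockdown embryos lay below the control median. That median includes control embryo 2, which stood apart and held the highest value. Without it the control median was 6.89 CPM, 14 of 16 knockdown embryos lay below it, and the log2 fold change of experiment 2 was -0.69 in place of -0.83. In experiment 3 it had 2.75, 7.72 and 15.8 CPM in knockdown and 2.14, 6.38 and 17.9 CPM in control embryos. The ranges overlapped in each experiment.

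The log2 fold changes of Nanog by experiment were 0.92 (SE 0.26), -0.83 (SE 0.36) and 0.26 (SE 0.23). In experiment 1 the adjusted p was 0.0542, where 0.929% of features passed. In experiment 2 it was 0.999, where 0% passed, and in experiment 3 it was 0.917, where 0.149% passed. The test that the 3 responses are equal gave p = 6.6e-04 and an adjusted p of 0.343, which did not pass, in a test that called 0.0149% of features. Without the low-count filter that adjusted p was 0.0478. In experiment 1 the adjusted p of Nanog was 0.0445 without the 4 embryos that stood apart, 0.0460 with library totals as scaling and 0.0389 without the filter. None of those 4 embryos was in experiment 1, so the Nanog counts of experiment 1 were the same in that setting. An alternative with robust dispersions was also run, and its value is not given here. The shares of all features that passed under these other settings were not counted. Over all experiments Nanog gave 0.29 on the log2 scale with an SE of 0.16 (adjusted p = 0.627).

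Nanog counts were spread over coding transcripts of similar sequence, with 76.2% on ENSMUST00000112581.7 in knockdown and 75.6% in control embryos, and 21.9% on ENSMUST00000012540.4 in knockdown and 24.4% in control embryos. The median count per embryo was 31 in knockdown and 29 in control embryos, which limits the precision of a single library. Processed pseudogenes of Nanog and Pou5f1 exist in the mouse genome, and whether reads were divided with them was not tested. Nanog lies at chr6:122707489-122714633 on the plus strand.

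Sox2, the SRY-related partner of POU5F1, was close to the limit of detection outside experiment 1. It had no count in 19 of 55 knockdown and 15 of 56 control embryos. In experiment 1 the lowest, median and highest values were 0, 3.32 and 14.4 CPM in knockdown and 0, 2.33 and 14.7 CPM in control embryos. In experiment 2 they were 0, 0.83 and 4.34 CPM in knockdown and 0, 0.29 and 3.69 CPM in control embryos. The highest control value was that of embryo 2, which stood apart, and without it the control median was 0.14 and the highest value 0.77 CPM. In experiment 3 they were 0, 0 and 4.43 CPM in knockdown and 0, 0.37 and 1.95 CPM in control embryos. A library with no count allows up to 3 counts, which is 0.646 CPM at the median library size, and covers counting error only.

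Of the embryos with 3 or more Sox2 counts, 32 were knockdown and 35 were control embryos. The medians of experiments 2 and 3 lay around that limit in both arms. With no filter Sox2 gave 0.63 on the log2 scale with an SE of 0.39 (adjusted p = 0.531), and no difference was detectable at this depth. Sox2 lies at chr3:34650405-34652461 inside the long noncoding gene Sox2ot on the same strand, so reads in the shared part may belong to either.

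Sall4, which encodes a zinc finger factor that binds with POU5F1 and NANOG in stem cells, had the smallest coefficient of variation of the 10 over all embryos, 29.1%. In experiment 1 the lowest, median and highest values were 111.03, 182.2 and 276.2 CPM in knockdown and 101.9, 173.96 and 269.03 CPM in control embryos. In experiment 2 they were 176.8, 240.5 and 367.5 CPM in knockdown and 185.8, 310.6 and 375.6 CPM in control embryos. In experiment 3 they were 93.8, 192.1 and 323.2 CPM in knockdown and 117.4, 186.2 and 285.2 CPM in control embryos. Knockdown and control ranges overlapped in each experiment. Sall4 gave a log2 fold change of 0.0050 with an SE of 0.074 (adjusted p = 0.995), and its 95% interval ran from 0.907-fold to 1.11-fold. The gene lies at chr2:168748332-168767943 on the minus strand and overlaps Gm14261 on the other strand.

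Klf17 gave a log2 fold change of 0.052 with an SE of 0.081 (adjusted p = 0.944), and a 95% interval from 0.927-fold to 1.16-fold. In experiment 1 its lowest, median and highest values were 522.9, 927.6 and 2366 CPM in knockdown and 403.3, 860.98 and 1209 CPM in control embryos. In experiment 2 they were 1015, 1203 and 1877 CPM in knockdown and 790.01, 1288 and 1594 CPM in control embryos. In experiment 3 they were 836.3, 1129 and 1662 CPM in knockdown and 696.9, 1280 and 2495 CPM in control embryos. The ranges overlapped throughout, and 22 of 55 knockdown embryos lay above the control median of their experiment.

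By experiment the log2 fold changes of Klf17 were 0.34 (SE 0.13), 0.051 (SE 0.18) and -0.18 (SE 0.12). The test of equal responses gave p = 0.0147 and an adjusted p of 0.765. Klf17 counts came from the single transcript ENSMUST00000062747.5. The gene lies at chr4:117757836-117765648 on the minus strand.

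Klf2, which encodes a KLF factor that supports naive pluripotency in embryonic stem cells, gave the smallest p among the factors. In experiment 1 its lowest, median and highest values were 1.59, 11.6 and 32.9 CPM in knockdown and 1.19, 5.77 and 15.9 CPM in control embryos. In experiment 2 they were 1.90, 7.57 and 15.97 CPM in knockdown and 1.45, 6.33 and 6.57 CPM in control embryos. In experiment 3 they were 0, 5.78 and 16.6 CPM in knockdown and 1.55, 4.16 and 10.3 CPM in control embryos. The highest embryo of each experiment was a knockdown embryo, 37 of 55 knockdown embryos lay above the control median of their experiment, and the ranges overlapped.

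The log2 fold change of Klf2 was 0.64 (SE 0.19), with an adjusted p of 0.0721 that did not pass. Its 95% interval ran from a 1.20-fold to a 2.01-fold level in knockdown embryos. By experiment it was 0.83 (SE 0.31), 0.68 (SE 0.46) and 0.46 (SE 0.28), with adjusted p values of 0.254, 0.999 and 0.802 (edgeR), and the test of equal responses gave an adjusted p of 0.983. Knockdown embryos 8 and 15 of experiment 3, which stood apart, held the 2 lowest Klf2 values, 0 and 0.28 CPM. Without the 4 embryos that stood apart the log2 fold change was 0.73 with an adjusted p of 0.0133. DESeq2 gave an adjusted p of 0.0261 and the fit without a low-count filter 0.0401. These 3 were the only ones of 15 other settings in which Klf2 passed, and in the other 12 it did not. Leaving out the 4 embryos was chosen after seeing the data. In the authors' deposited table over all embryos the only Klf2 transcript had a log2 fold change of 0.59 with an adjusted p of 0.1003. The gene lies at chr8:72319033-72321656 on the plus strand.

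**Figure D2:**
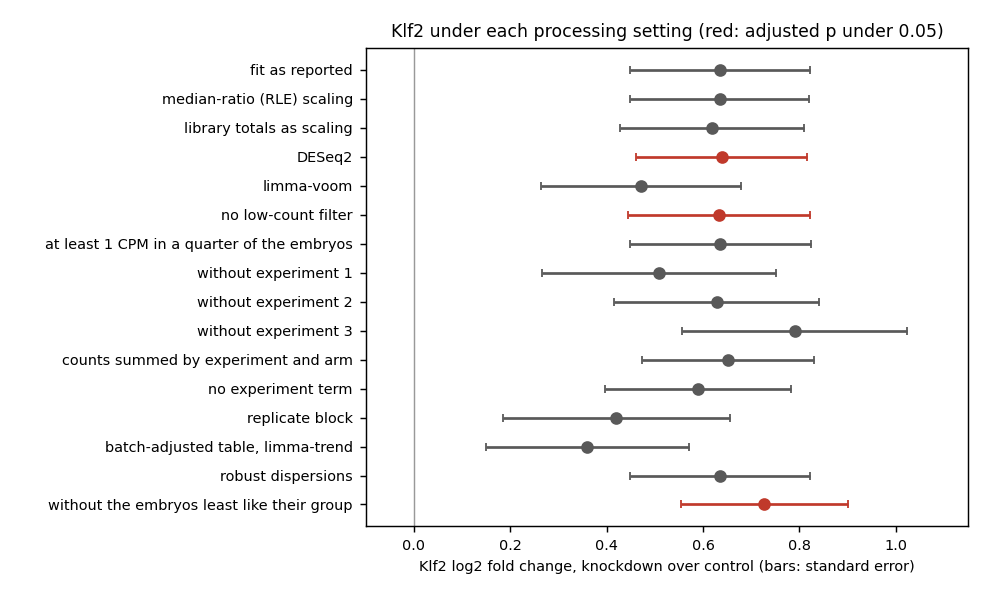
Log2 fold change of Klf2, knockdown over control, with its standard error in the fit as reported and under 15 other settings. All 16 values are above 0, from 0.36 to 0.79, and 3 of the 15 other settings pass an adjusted p of 0.05.

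Klf4 and Klf5, which encode KLF factors of the naive network with KLF5 also active in the trophectoderm, had log2 fold changes near 0. Klf4 had a median of 14.1 CPM in knockdown and 15.3 CPM in control embryos, with ranges of 4.05 to 40.3 CPM in knockdown and 4.50 to 58.5 CPM in control embryos, and its log2 fold change was -0.0024 with an SE of 0.13 (adjusted p = 0.999). Klf5 had a median of 26.6 CPM in knockdown and 31.2 CPM in control embryos, with ranges of 4.20 to 79.9 CPM in knockdown and 10.3 to 76.9 CPM in control embryos. Klf5 gave -0.084 on the log2 scale with an SE of 0.12 (adjusted p = 0.932) and a 95% interval from 0.805-fold to 1.11-fold, and 38 of 55 knockdown embryos lay below the control median of their experiment. The lowest Klf5 values were 4.20 and 5.84 CPM, in knockdown embryos 5 and 8 of experiment 3. Klf4 lies at chr4:55527143-55532466 on the minus strand and Klf5 at chr14:99298691-99315036 on the plus strand.

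Tfcp2l1, which encodes a grainyhead-family factor downstream of LIF and WNT signals in stem cells, was the factor with the largest negative log2 fold change. In experiment 1 its lowest, median and highest values were 3.42, 10.3 and 42.6 CPM in knockdown and 2.34, 16.6 and 61.2 CPM in control embryos. In experiment 2 they were 5.63, 20.9 and 44.3 CPM in knockdown and 12.03, 38.6 and 76.8 CPM in control embryos. In experiment 3 they were 4.19, 15.7 and 70.8 CPM in knockdown and 5.76, 22.3 and 54.03 CPM in control embryos. The knockdown median was the lower one in each experiment, 36 of 55 knockdown embryos lay below the control median of their experiment, and the ranges overlapped.

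Over all experiments Tfcp2l1 gave -0.36 on the log2 scale with an SE of 0.17 (adjusted p = 0.472), and by experiment -0.36 (SE 0.29), -0.77 (SE 0.39) and -0.18 (SE 0.25). Its coding transcript ENSMUST00000027629.9 held 93.8% of the counts in knockdown and 92.9% in control embryos. The noncoding transcript ENSMUST00000190652.1 held 6.21% in knockdown and 7.13% in control embryos. In the authors' deposited table over all embryos that transcript had a log2 fold change of -0.88 with an adjusted p of 0.219. The gene lies at chr1:118627945-118685168 on the plus strand and overlaps Gm22094 and Gm28882 on the other strand and Gm23497 on the same strand.

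Tbx3, which encodes a T-box factor of the naive network, had a median of 57.5 CPM in knockdown and 58.3 CPM in control embryos, with ranges of 19.4 to 136.01 CPM in knockdown and 16.8 to 145.8 CPM in control embryos. Tbx3 gave -0.082 on the log2 scale with an SE of 0.12 (adjusted p = 0.932) and a 95% interval from 0.807-fold to 1.11-fold. Its counts were divided over 3 coding transcripts, with 52.5% on ENSMUST00000018748.8 in knockdown and 52.3% in control embryos, and 27.0% on ENSMUST00000079719.10 in knockdown and 28.3% in control embryos. The third, ENSMUST00000121021.7, held 18.8% in knockdown and 18.0% in control embryos. The gene lies at chr5:119670669-119684724 on the plus strand and overlaps Tbx3os1 on the other strand.

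**Figure D3:**
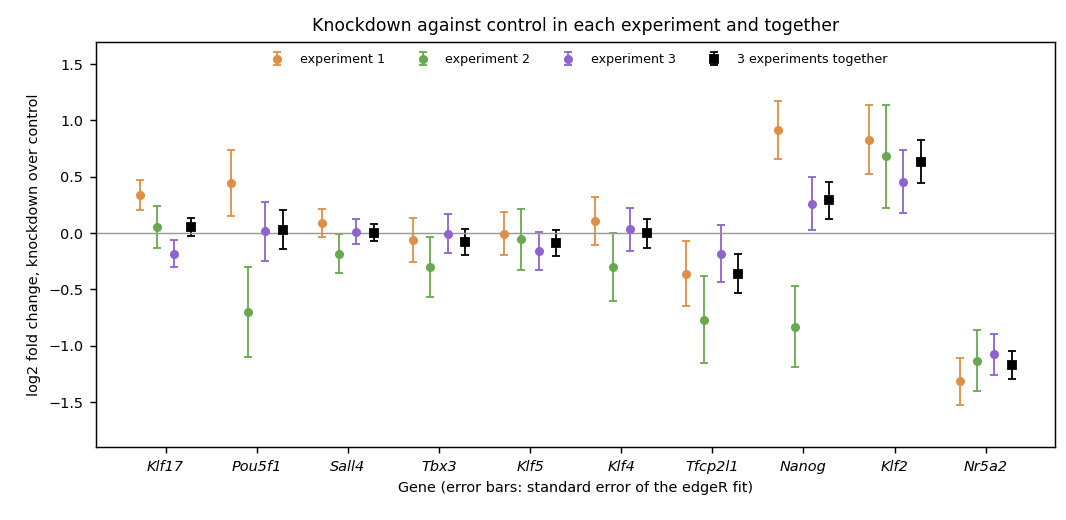
Log2 fold change, knockdown over control, of the 9 factors tested and of Nr5a2, in each experiment and over the 3 experiments; bars are standard errors of the edgeR fit. Nr5a2 lies below 0 in each experiment, Klf2 above 0 and Tfcp2l1 below 0 in each, while Nanog lies at 0.92, -0.83 and 0.26.

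Control embryos differed between experiments for 3 of the 9 factors, in a test that called 10.9% of all features (edgeR's F-test over the 3 control groups). Klf17 had control medians of 860.98, 1288 and 1280 CPM in experiments 1, 2 and 3 (adjusted p = 8.0e-06), and its log2 difference was -0.71 (SE 0.12) between experiments 1 and 3. Klf4 had control medians of 20.6, 15.7 and 11.5 CPM (adjusted p = 7.0e-04), and its log2 difference was 0.94 (SE 0.19) between experiments 1 and 3. Sall4 had control medians of 173.96, 310.6 and 186.2 CPM (adjusted p = 0.00297), and its log2 difference was 0.54 (SE 0.16) between experiments 2 and 3. These differences share the control embryos of experiment 3, and their sizes exceed the knockdown log2 fold changes of the same genes over all experiments.

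Pou5f1 was related to the amount of oocyte marker RNA in the knockdown embryos of experiments 1 and 3. Log2 CPM of each of the 9 factors was correlated with Nr5a2, with the mean of 19 oocyte markers and with the mean of 21 2-cell markers in each of the 6 groups, which made 162 relations. Of these, 4 passed for both Pearson's r and Spearman's rho after Benjamini-Hochberg adjustment (permutation tests, two-sided). Pou5f1 with the oocyte mean gave r = 0.691 (adjusted permutation p = 0.0428) and rho = 0.788 (adjusted permutation p = 0.0243) in the 16 knockdown embryos of experiment 1. It gave r = 0.758 (adjusted permutation p = 0.00486) and rho = 0.747 (adjusted permutation p = 0.00729) in the 23 knockdown embryos of experiment 3. Leaving out the 2 most distant embryos on the oocyte mean gave an r of 0.777 in experiment 1 and of 0.673 in experiment 3. The relation did not pass in the knockdown embryos of experiment 2 (r = 0.448). Nor did it pass in the control embryos of experiments 1, 2 and 3 (r = 0.457, 0.324 and 0.441). With the 2-cell mean Pou5f1 gave r = 0.785 (adjusted permutation p = 0.0121) in the knockdown embryos of experiment 2. Its rho there was 0.718 (adjusted permutation p = 0.0702), which did not pass. In the knockdown embryos of experiment 1 the r of Pou5f1 with the 2-cell mean was 0.662 (adjusted permutation p = 0.0711), which did not pass either.

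The libraries that stood apart touch the relation in experiment 3, where knockdown embryos 8, 5 and 15 had oocyte means of 8.26, 7.70 and 7.25 log2 CPM against a median of 6.59 in the other 20. Without them r was 0.604 for Pou5f1. Over all embryos of a group, Pou5f1 had a positive r with both the oocyte mean and the 2-cell mean in all 6 groups. In the control embryos of experiment 2 its r with the oocyte mean was 0.324 and became -0.046 without control embryo 2. There its r with the 2-cell mean went from 0.596 to 0.786. In the knockdown embryos of experiment 3 its r with the 2-cell mean was 0.185 and became 0.711 without the 3 embryos. Tbx3 with the oocyte mean gave r = -0.677 (adjusted permutation p = 0.0108) and rho = -0.775 (adjusted permutation p = 0.00729) in the knockdown embryos of experiment 3, and r was -0.728 without the 3 embryos that stood apart and -0.668 without the 2 most distant on the oocyte mean. Klf17 with the 2-cell mean gave r = -0.585 (adjusted permutation p = 0.0428) and rho = -0.618 (adjusted permutation p = 0.0458) in the control embryos of experiment 3, and r was -0.444 without the 2 most distant embryos.

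No factor passed both tests with Nr5a2 in any group. Klf2 in the knockdown embryos of experiment 3 gave r = 0.602 (adjusted permutation p = 0.0452) but rho = 0.450 (adjusted permutation p = 0.244), and r became 0.288 once the 2 most distant embryos on Nr5a2 were left out, so the relation rests on those embryos. Without the 3 embryos that stood apart r was 0.586 and rho 0.385. Whether the correlations differ between knockdown and control embryos was not tested.

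**Figure D4:**
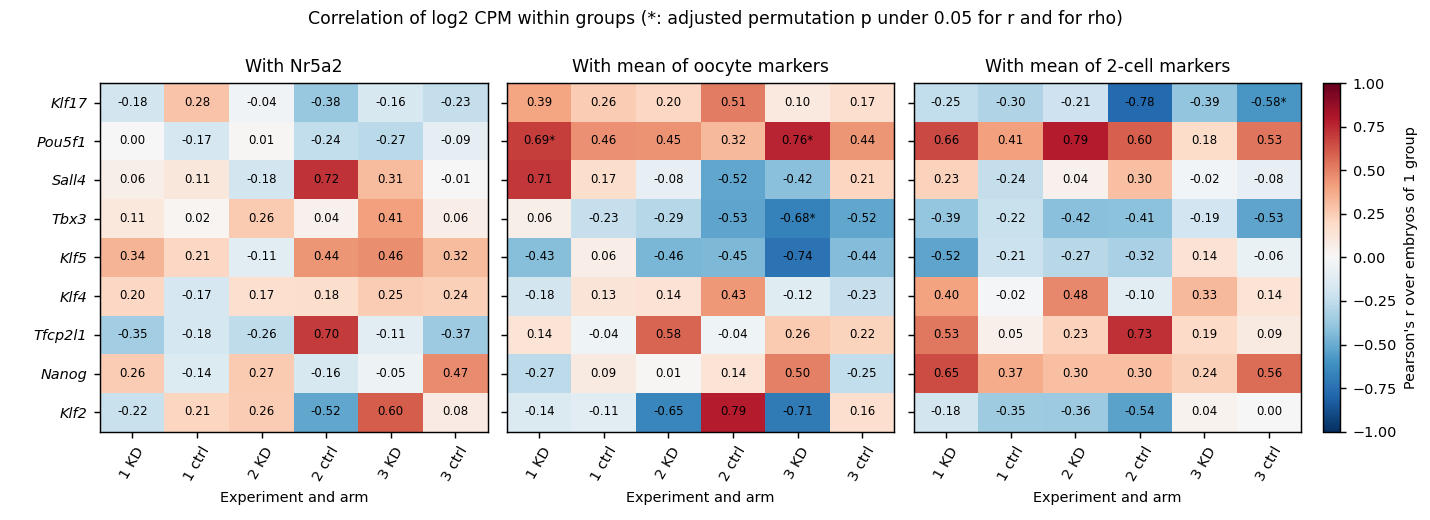
Pearson's r between log2 CPM of each factor and Nr5a2, the oocyte marker mean or the 2-cell marker mean, within each experiment and arm (KD, knockdown, left of ctrl, control); stars mark the 4 relations that passed for r and rho. With all embryos in, the Pou5f1 row is above 0 in all 12 fields of the marker means, and the Klf17 row is below 0 in all 6 fields of the 2-cell mean.

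The factors did not vary together as a group from embryo to embryo. After subtraction of group means, 32 of the 36 pairs of factors had an r between -0.3 and 0.3 over all embryos, which is given as a description without p. Klf5 and Tbx3 had the highest r, 0.426 (0.359 without the 4 embryos that stood apart). Pou5f1 had negative r with Klf5, -0.545 (-0.451 without the 4), and with Tbx3, -0.422 (-0.382 without the 4). Nanog and Klf17 had an r of -0.364 (-0.385 without the 4). The points share library depth and scaling.

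**Figure D5:**
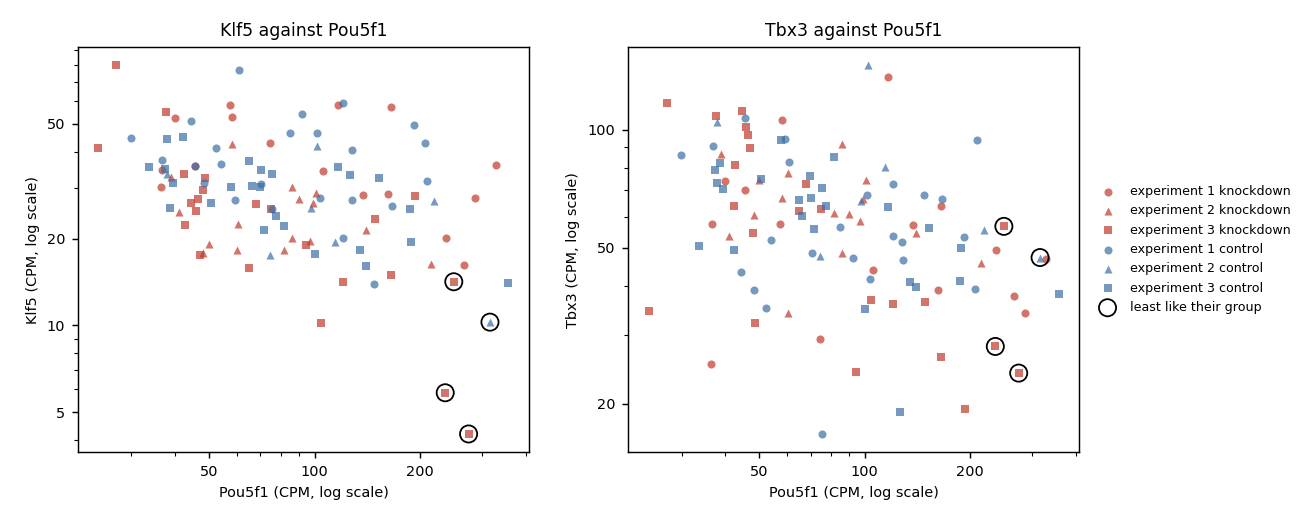
Klf5 and Tbx3 against Pou5f1 in every embryo (CPM, log scales), by experiment and arm; circles mark the 4 embryos that stood apart. Embryos high in Pou5f1 tend to be low in Klf5, with an r of -0.545 over all embryos and -0.451 without the circled ones.

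Pou5f1 had the closest neighbours among all genes. Its r was 0.936 with Kif17, a kinesin motor gene, and 0.917 with Cox10, which encodes a heme biosynthesis enzyme of mitochondria, and these stayed at 0.926 and 0.904 without the 4 embryos. Klf5 was nearest to Pprc1 (0.718) and Ube2o (0.710), which fell to 0.592 and 0.570 without the 4 embryos. Klf17 was nearest to Cab39l (0.657) and Eif4b (0.656), and Nanog to Churc1 (0.639) and Pola2 (0.638). Tbx3 was nearest to Rwdd4a (0.576) and Dr1 (0.555), and Klf2 to Nubp2 (0.549) and Zfp239 (0.533). Sall4 was nearest to Stau1 (0.487) and Aurka (0.430), Tfcp2l1 to Gm37102 (0.457) and Olfm4 (0.453), and Klf4 to Hs6st1 (0.433) and Arfgef1 (0.428). Without the 4 embryos Klf2 had 0.416 with Nubp2 and 0.420 with Zfp239, Sall4 had 0.324 with Aurka and 0.519 with Stau1, and the values of Klf4, Nanog, Tbx3, Tfcp2l1 and Klf17 moved by less. These are Pearson's r of log2 CPM over all embryos after subtraction of group means.

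Of 30 other genes of the pluripotency network 26 were tested and none passed, with a median log2 fold change of 0.017, and 4 had an unadjusted p under 0.05 in edgeR, where 9.52% of all features did. The smallest p was that of Zscan10, a zinc finger gene of stem cells, with 13.6 ± 8.35 CPM in 55 knockdown and 9.54 ± 6.28 CPM in 56 control embryos (SD) and an adjusted p of 0.398 (edgeR). Of 14 LIF and STAT3 pathway genes 13 were tested and none passed, with 1 at an unadjusted p under 0.05 in edgeR, beside the same 9.52%. The smallest p was that of the kinase gene Pim3 (log2 fold change -0.21, adjusted p = 0.514). Of 11 genes of the WNT inputs 10 were tested and none passed, with 1 at an unadjusted p under 0.05. Apc, which encodes a scaffold of beta-catenin degradation, gave 0.23 on the log2 scale with an SE of 0.074 (adjusted p = 0.131).

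Genes of the later lineages were tested where their counts allowed it, and their counts at an unadjusted p under 0.05 stand beside the 9.52% of all features. In the trophectoderm list 10 of 12 were tested and none passed in edgeR, with 1 at an unadjusted p under 0.05, and Tfap2a had a log2 fold change of 0.44 (SE 0.13) with an adjusted p of 0.054. In the primitive endoderm list 5 of 8 were tested and none passed, with 0 at an unadjusted p under 0.05 and the smallest p for Pdgfra (log2 fold change -0.40, adjusted p = 0.838). Of 10 primed epiblast genes 2 were tested and neither had an unadjusted p under 0.05. Pou3f1 had 2.56 CPM in knockdown and 2.77 CPM in control embryos on average (adjusted p = 0.975).

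Among paralogs of the factors, 1 gene passed. Sox15, an SRY-related gene that can pair with POU5F1 in mouse stem cells, fell to 28.3 ± 22.9 CPM in 55 knockdown embryos, against 48.9 ± 33.3 CPM in 56 control embryos (SD). On the log2 scale it fell by 0.84 (SE 0.21, edgeR, adjusted p = 0.0157). By experiment its log2 fold changes were -1.24, -0.042 and -0.81, and the test of equal responses gave an adjusted p of 0.937. The adjusted p was 0.0229 without the 4 embryos that stood apart, 0.642 without experiment 1, 0.260 without experiment 3 and 0.597 with counts summed by experiment and arm. It was 1 of 16 tested of 28 listed paralogs outside the KLF family, in a test that called 1.1% of all features. At an unadjusted p under 0.05 there were 3 of the 16 in edgeR, against 9.52% of all features. None of the 14 tested KLF and SP paralogs passed and 0 had an unadjusted p under 0.05, and Klf12 had the smallest p (log2 fold change 0.34, adjusted p = 0.552).

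In the marker lists of other cells and stages, Dppa3 had the smallest p of 19 oocyte markers (log2 fold change 0.22, adjusted p = 0.568), Tdpoz5 of 21 2-cell markers (-0.36, adjusted p = 0.349) and Tnfaip6 of 3 cumulus or granulosa genes (0.42, adjusted p = 0.695), and none of these lists had a gene that passed. At an unadjusted p under 0.05 there were 0 oocyte markers, 1 2-cell marker and 0 cumulus or granulosa genes in edgeR, beside 9.52% of all features. Of 4 tested blood, endothelial and fibroblast genes 1 passed, in a test that called 1.1% of all features. Pecam1, an endothelial adhesion molecule also made by embryonic stem cells, rose to 427.0 ± 279.04 CPM in 55 knockdown embryos, against 340.9 ± 140.9 CPM in 56 control embryos (SD; log2 fold change 0.47, adjusted p = 8.5e-04, edgeR). By experiment its log2 fold changes were 0.92, 0.11 and 0.26, and the test of equal responses gave an adjusted p of 0.343. Its adjusted p was 0.00301 without the 4 embryos that stood apart, 0.751 without experiment 1, 0.694 with summed counts and 0.546 without the experiment term. Hba-a1 gave 0.0051 on the log2 scale (adjusted p = 0.999) and the macrophage gene Lyz2 gave 0.47 (SE 0.41, adjusted p = 0.838). The list's part in the factors' values was not tested.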

How the data were processed

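Single-embryo libraries were made by the SmartSeq2 protocol with oligo dT priming, per the labels' protocols, and record no strand or molecular identifier. Named without roles in the submitters' processing notes are kallisto 0.46.1, DESeq2 1.32.0, Trim Galore 0.6.2, bcl2fastq and R 3.5.1, with builds hg19 and mm10. The authors deposited estimated counts per transcript without normalization. They also deposited values adjusted for batch, used here as a score in 1 alternative, and comparison tables with log2 fold changes and adjusted p-values. The deposited estimated counts were summed to genes by the authors' table (GENCODE M21 for 345 transcripts) and rounded. Transcripts with no gene, a median of 0.567% of counts, were left out. CPM use TMM-scaled library sizes. Genes were tested with edgeR 4.0.16 (R 4.3.3): filterByExpr by arm, TMM, and the quasi-likelihood F-test with experiment as a factor over 13451 features, with Benjamini-Hochberg adjustment at 0.05. A fit of 6 group means gave the values by experiment. SE came from the fold change and F, and intervals use 107 residual degrees of freedom. Correlations used log2 CPM (prior count 2) and 100000 permutations, or exact enumeration for groups under 10 embryos. Alternatives used DESeq2 1.42.0 and limma 3.58.1. The fit was also run on simulated counts. Those counts held no differences between experiments and no embryos that stood apart, so that run does not bear on these features of the data. The factors, gene lists and tests were chosen with earlier results of these data known. Named genes are the 10 factors, Nr5a2, for each other list up to 3 genes per direction that passed or else the gene with the smallest p, and the 2 nearest genes of each tested factor. Levels of named lineage markers in the opening were named after their values were seen. The design text names 55 knockdown and 57 control embryos, of which 55 and 56 were analysed here.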

Additional observations from a re-analysis of the deposited data

Results flagged for a closer look

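Sox2 in the 7 control embryos of experiment 2 was marked because its highest embryo, at 3.69 CPM, lay far from the others: the gap to the next embryo was 0.791 of the group's range, against a limit of 0.568. That library is control embryo 2, which also stood apart from its group over all genes. No other factor was marked, and this group was the only one small enough for the test. Chance marks about 1 in 20 groups where values are normally distributed, and 11 genes were examined. Sox2 lay near the limit of detection in this group, so its own chance rate is not known.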

How the results depend on the processing

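Over 15 alternatives the number of factors that passed was 0 except for 1, Klf2, with DESeq2, without the low-count filter and without the 4 embryos that stood apart, the last chosen after seeing the data. Klf2, Klf5, Tbx3, Tfcp2l1 and Nr5a2 kept their direction in all 15, and Nr5a2 passed in all 15. Klf2 ranged from 0.36 to 0.79 and Tfcp2l1 from -0.59 to -0.26 on the log2 scale. The factors near 0 changed sign. Pou5f1 was -0.024 with library totals, -0.037 with limma-voom, -0.21 without experiment 1, -0.13 with counts summed by experiment and arm, -0.062 in the batch-adjusted table and -0.056 without the 4 embryos. Sall4 was -0.022 with library totals, -0.0052 with limma-voom, -2.0e-05 without the filter, -0.048 without experiment 1, -0.061 with summed counts and -0.036 in the batch-adjusted table. Klf4 was 0.0085 with median-ratio scaling, 0.0098 with DESeq2, 0.024 with limma-voom and 0.069 without experiment 2. Without experiment 1, Nanog was -0.073 and Klf17 -0.12. The cause was not tested. Over all 13451 features 148 were called as reported, against 227 with DESeq2 on the same features. Without the filter 966 of 30694 were called (391 lower, 575 higher). There were 23 calls without experiment 1, 42 without experiment 3, 3 with summed counts and 60 without the experiment term. Of the 148, 107 were also called without the 4 embryos that stood apart, 15 without experiment 1, 32 without experiment 3 and 51 without the experiment term. The total called over all features without the 4 embryos is not given here, so the Klf2 call in that setting has no background share beside it. With library totals 69 were lower and 58 higher, and 89 were lower and 54 higher after batch adjustment, against 63 lower and 85 higher as reported. The test of equal responses over experiments passed for 1 factor, Nanog, without the filter, over 30694 features, and for 0 under the other alternatives. How many of all features passed that test under each alternative was not counted. The 3 factors that differed between control groups passed under all 4 alternatives run for that test. Knockdown and control embryos with the same number had median correlations of 0.0413, 0.0215 and 0.112 in experiments 1, 2 and 3. Over all combinations of a knockdown and a control embryo the medians were lower, at -0.0149, -0.0030 and 0.0348. Whether the shared numbers mark pairs was not tested. With them as a replicate block, over 92 embryos in 46 pairs, 19 features and 0 factors passed, and Pou5f1 was -0.080. Sox15 and Pecam1, called in the other lists, kept their direction in all 15 and passed in 11 each; under the block their adjusted p was 0.183 for Sox15 and 0.143 for Pecam1. Depth limits Sox2 most, then Nanog and Klf2 with medians near 30 counts per library.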
